A study of Mus musculus with 4 samples.

Results

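The mitochondrial chromosome of the mouse carries 37 genes, of 55573 genes listed in the deposited table, and these were taken as all rows whose symbol begins with mt-. They comprise 13 protein genes, 2 rRNA genes and 22 tRNA genes, and each had the same coordinates in the GENCODE M21 annotation of the mouse genome build GRCm38. Reads were counted on 25 of them, which were 9 protein genes, 2 rRNA genes and 14 tRNA genes. The remaining 12 genes stood at 0 in every library and were treated as not counted.

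The libraries came from ribosome profiling, which sequences the RNA fragments that ribosomes shield from nuclease, in primary mouse myoblasts, the proliferating precursors of skeletal muscle, at day 2 of proliferation. The library titles read Polysome-Seq, a name the study uses for a separate assay of polysome-bound mRNA, whereas the protocol given with them is that for nuclease-protected fragments, which is followed here. There were 2 libraries with the genotype label WT and 2 with the label eIF5A knockout (KO), and replicates carried only a number. In the study's mice a tamoxifen-inducible Cre recombinase driven from the Pax7 locus, active in muscle stem cells, deleted a floxed eIF5A gene (Pax7 CreERT2/+;eIF5A f/f). The cells came from hind-limb muscle of 3-week-old knockout animals after tamoxifen and of WT controls, which the study describes as carrying either the Cre driver alone or the floxed alleles alone, and all cultures received FGF and cycloheximide. The sources do not say how many animals gave a library, so p-values below measure only the spread between these libraries.

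Eif5a itself, the translation factor the knockout targets, read 34.9 and 65.2 RPKM in the WT libraries and 60.3 and 59.4 in the KO libraries (RPKM, reads per kilobase of gene scaled to library size). Its log2 fold change, KO against WT, was 0.32 (SE 0.48, adjusted p = 0.839, limma), so its footprint signal was not lower under the KO label and the groups are called by their labels here. Each library held between 642429 and 704006 reads, recovered from the RPKM values, whereas the authors' library size ranged from 471136 in WT library 2 to 906990 in KO library 1. The 8 myoblast markers examined all had log2 fold changes below 0, with a median of -1.15 and a summed level of 254 and 198 RPKM in WT against 100 and 122 in KO. The fibroblast list had a median of 0.45 and sums of 488 and 289 RPKM in WT against 821 and 362 in KO, the endothelial markers had a median of 0.57 with sums of 106 and 101 against 139 and 112. Of 6 immune markers 2 were tested, Cd68 (log2 fold change -0.36) and Adgre1 (1.33), Cd3e and Itgam stood at 0, and the sums were 17.1 and 25.6 RPKM in WT against 20.8 and 20.3 in KO. The part of such differences in cell makeup in the mitochondrial values was not tested, and in bulk libraries fewer cells of a type and less RNA per cell cannot be told apart.

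Mitochondria keep a small circular genome that is transcribed from both strands as long precursors. The tRNAs lie between the protein and rRNA genes and are cut out to release them, so the precursor yields mRNAs, rRNAs and tRNAs together. All of its protein genes encode subunits of the respiratory chain complexes and of ATP synthase, and they are translated inside the organelle by mitochondrial ribosomes built on mt-Rnr1 and mt-Rnr2. Most subunits of the same complexes are encoded in the nucleus and translated on cytosolic ribosomes, the ribosomes on which eIF5A acts. Cycloheximide arrests cytosolic but not mitochondrial ribosomes, and fragments of rRNA and tRNA in such libraries need not be ribosome footprints. Proliferating myoblasts enlarge this system as they turn into muscle fibres, which depend heavily on respiration.

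The tRNA genes with the most reads are shown first, because a few short sequences held nearly all tRNA reads. They were read from the GENCODE M21 transcripts (GRCm38), 5′ to 3′, and capitals mark the anticodon where a script found it in a loop closed by a paired stem. No such match was found in mt-Ts2, a serine tRNA, which is printed in lower case throughout.

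mt-Ts2: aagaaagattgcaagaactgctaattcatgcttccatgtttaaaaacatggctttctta
mt-Te: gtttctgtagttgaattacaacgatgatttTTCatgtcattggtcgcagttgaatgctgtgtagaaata
mt-Tp: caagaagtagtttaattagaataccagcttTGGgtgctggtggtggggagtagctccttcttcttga
mt-Tc: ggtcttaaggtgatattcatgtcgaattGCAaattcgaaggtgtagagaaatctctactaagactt
mt-Ta: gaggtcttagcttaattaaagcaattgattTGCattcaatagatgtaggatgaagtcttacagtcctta

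Their positions on chromosome MT are 11613 to 11671 on the plus strand for mt-Ts2, and on the minus strand 14071 to 14139 for mt-Te (glutamate), 15356 to 15422 for mt-Tp (proline), 5192 to 5257 for mt-Tc (cysteine) and 5018 to 5086 for mt-Ta (alanine). Over the 4 libraries they held 3114, 3223, 3270, 988 and 784 reads in that order. None of the 5 shares a 30-base run with an annotated nuclear transcript.

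**Figure D1:**
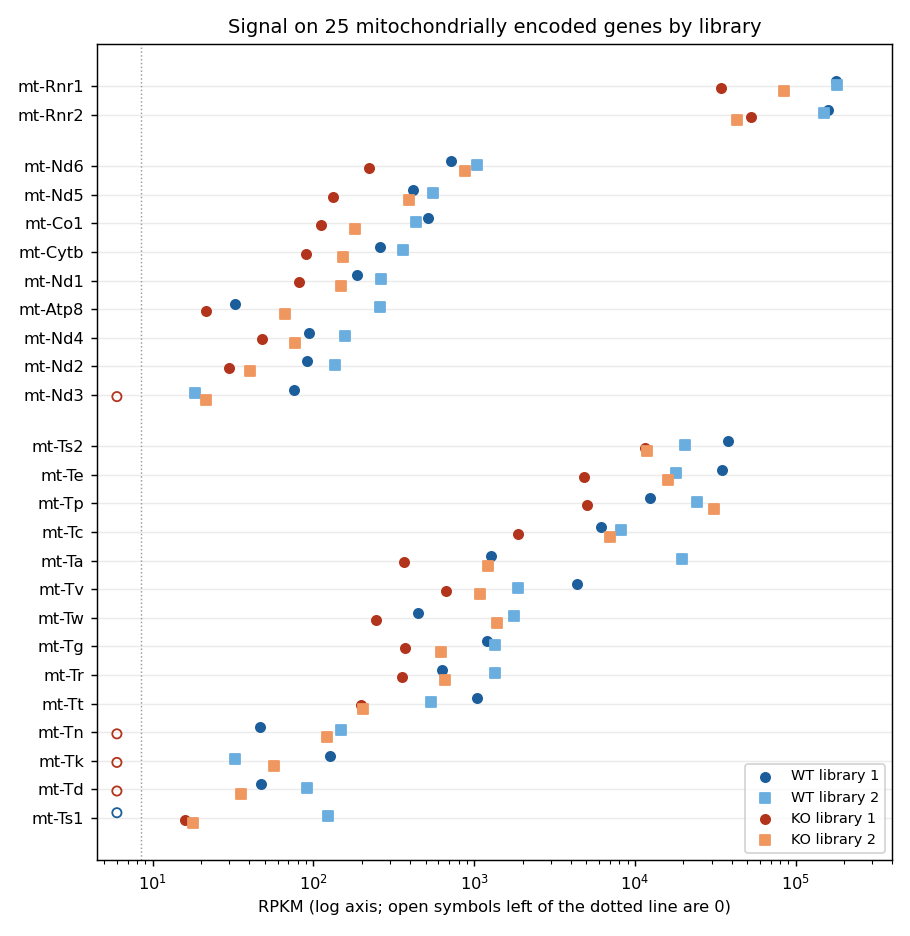
RPKM on a log axis of the 25 mitochondrial genes with reads, 1 point per library, grouped as rRNA, protein and tRNA genes from top to bottom; open symbols left of the dotted line are libraries at 0. KO library 1 lay below KO library 2 for 24 of the 25 genes, the exception being mt-Rnr2.

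No mitochondrial gene passed the test between KO and WT. At an adjusted p under 0.05 (limma over 11363 genes, two-sided), 0 of 25 were lower and 0 higher in KO, where 0.0968% of all tested genes were called lower and 0.0088% higher. Without adjustment, at p under 0.05, 4 of the 25 were lower, namely mt-Nd2, mt-Co1, mt-Cytb and mt-Tt, and 0 were higher, against 4.46% lower and 2.86% higher of all tested genes. Fitting limma-voom to the recovered reads gave 11 of 21 lower at an unadjusted p under 0.05, where 6.66% of all genes were, and again 0 at an adjusted p under 0.05, where 0.425% of all genes were lower and 0.0% higher. The count of 4 became 0 without KO library 1 and 8 without KO library 2, where 1.98% and 2.82% of all tested genes were lower, each a fit in which the lone KO library is assumed to vary like the WT pair.

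The fitted log2 fold changes were nevertheless below 0 for 24 of the 25 genes, where 50.0% of all tested genes were below 0, with mt-Ts1 (6 reads in all) as the exception. For mt-Ts1 the sign depends on the log scale, since 0 and 123 RPKM in WT against 15.98 and 17.9 in KO give a lower mean in KO. The count was 15 of 25 under quantile normalization, under which both rRNA genes lay above 0, and 22 of 25 with libraries set to an equal sum of reads. It was 20 of 25 without KO library 1 and 21 of 25 without WT library 2. The median was -1.26 over the 9 protein genes, -1.71 over the 2 rRNA genes and -1.45 over the 14 tRNA genes, beside 0.00026 over all tested genes. Both KO libraries lay below both WT libraries for 15 of 25 genes, where 20.3% of all tested genes did so, and both lay above for 0, where 20.1% did. The genes are neighbours on the same precursor transcripts and share each library's scaling, so they are not independent of each other. The KO libraries themselves differed, since KO library 1 lay below KO library 2 for 24 of 25 genes, where 50.2% of all tested genes did. The WT libraries differed less evenly, with WT library 1 below WT library 2 for 17 of 25 genes, where 48.9% of all tested genes were. Without KO library 1 the median of the protein genes was -0.65, and without KO library 2 it was -1.87. For 19 of the 25 genes leaving out some library moved the log2 fold change over 1.5 times or turned it, the others being mt-Rnr2, mt-Nd2, mt-Co1, mt-Cytb, mt-Tg and mt-Tt.

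**Figure D2:**
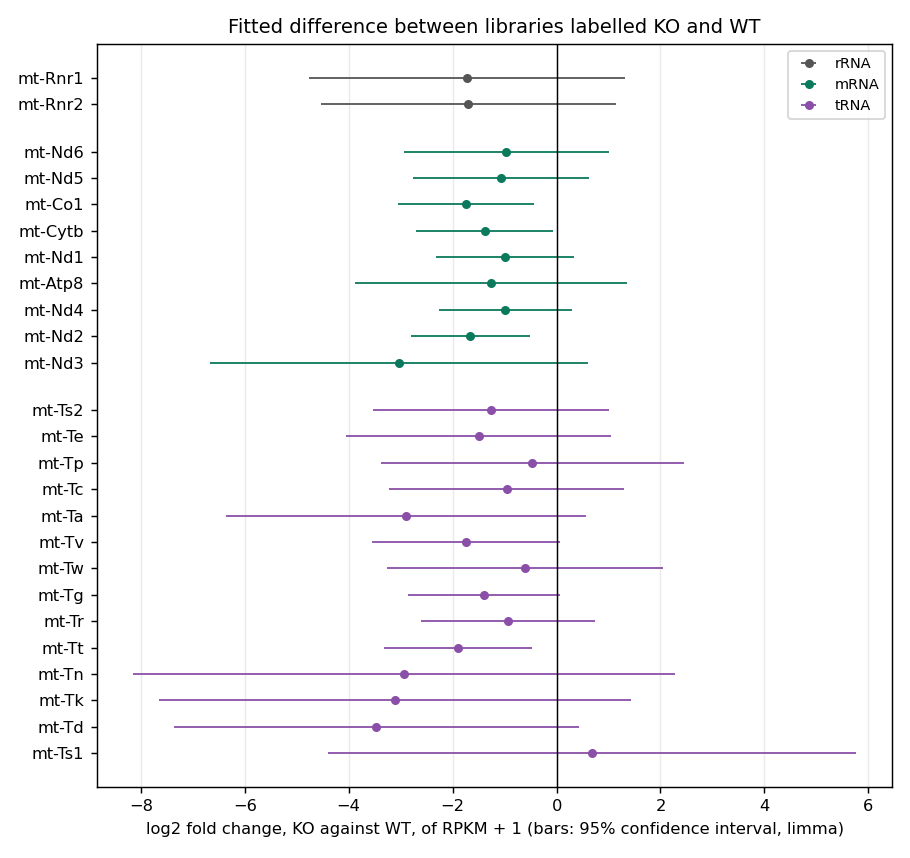
Log2 fold change of RPKM + 1, KO against WT, with the 95% confidence interval from limma, for each mitochondrial gene with reads; colours separate rRNA, protein and tRNA genes. The interval excluded 0 for mt-Nd2, mt-Co1, mt-Cytb and mt-Tt before adjustment, and mt-Ts1 alone has a positive estimate, although its mean RPKM was lower in KO.

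The 2 rRNA genes held most of the mitochondrial signal, although the study's methods describe a step that removed rRNA and tRNA reads before alignment. Mitochondrial rRNA took 39.1% and 30.1% of all reads in the WT libraries and 15.0% and 18.5% in the KO libraries, and counting error was small beside this (95% Wilson interval 39.0% to 39.3% for WT library 1). The mean share was 34.6% ± 6.38 (SD, n = 2) in WT and 16.8% ± 2.45 in KO. The KO to WT ratio of means was 0.484, and 0.296 with reads on protein-coding genes as denominator. The groups did not overlap, at an exact permutation p = 0.333, the smallest that 2 libraries against 2 can give. How far removal of rRNA differed between libraries was not tested.

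The small-subunit rRNA gene mt-Rnr1 (MT 70 to 1024, plus strand) read 177295 and 181442 RPKM in WT and 34540 and 84976 RPKM in KO. Its WT values were close together, and the KO libraries lay below both while differing 2.46-fold from each other. The log2 fold change was -1.73 (SE 1.24, adjusted p = 0.706), and it was -1.08 without KO library 1 and -2.38 without KO library 2. The large-subunit gene mt-Rnr2 (MT 1094 to 2675, plus strand) read 159059 and 150062 RPKM in WT and 52956 and 42898 RPKM in KO. Here the KO libraries were nearer to each other and in the opposite order, with a log2 fold change of -1.70 (SE 1.15, adjusted p = 0.697). Within a library mt-Rnr2 had 1.49 and 1.37 reads per mt-Rnr1 read in WT and 2.54 and 0.836 in KO, so the KO libraries lay on either side of WT. This ratio does not depend on library scaling, and it did not separate the groups (exact permutation p = 1).

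**Figure D3:**
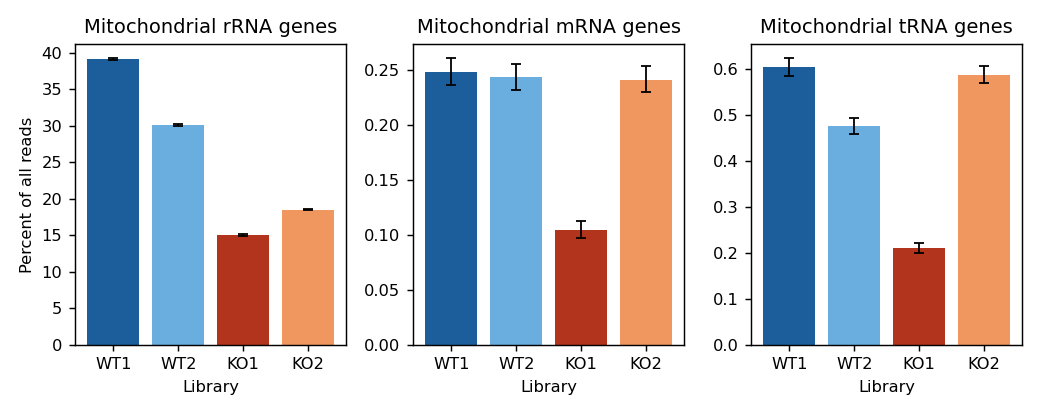
Percent of all reads on mitochondrial rRNA, protein and tRNA genes in each library, with 95% Wilson intervals as error bars and a separate axis for each class. Both KO libraries were below WT for rRNA, whereas for protein and tRNA genes KO library 1 was low and KO library 2 lay at or near the WT level.

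The protein genes together held 1608 and 1563 reads in WT and 736 and 1567 reads in KO. As a share of all reads this was 0.248% and 0.243% in WT, 0.105% in KO library 1 and 0.241% in KO library 2. The Wilson interval, which covers counting error only and not the spread between libraries, was 0.229% to 0.253% for KO library 2 and 0.0973% to 0.112% for KO library 1. Other read classes in that denominator differed between libraries too: besides the rRNA shares above, microRNA and Y RNA genes took 12.7% and 32.2% of all reads in WT and 15.6% and 18.2% in KO. Per 100 reads on nuclear protein-coding genes, the mitochondrial protein genes took 0.601 and 0.723 in WT but 0.160 and 0.409 in KO, a KO to WT ratio of means of 0.429 with no overlap (exact permutation p = 0.333), and with reads on all protein-coding genes as denominator it was 0.431. The denominator of nuclear genes alone was added after the data were seen. Of all reads outside microRNA and Y RNA genes the share was 0.284% and 0.359% in WT and 0.124% and 0.295% in KO, where the groups overlapped (ratio 0.651, exact permutation p = 0.667).

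Complex I, which feeds electrons from NADH into the chain, has 7 of the 13 protein genes. mt-Nd1 (MT 2751 to 3707), a membrane subunit of its proton-pumping arm, read 187 and 262 RPKM in WT and 81.8 and 149 in KO, and the groups did not overlap (log2 fold change -0.998, SE 0.54, adjusted p = 0.690). mt-Nd2 (MT 3914 to 4951), another membrane subunit, read 91.1 and 137 RPKM in WT and 29.7 and 40.6 in KO. Its KO libraries were close together and below both WT libraries, with the lowest p of the protein genes (log2 fold change -1.66, SE 0.47, adjusted p = 0.635). mt-Nd4 (MT 10167 to 11544) read 93.9 and 157 RPKM in WT and 48.0 and 77.3 in KO, again without overlap (log2 fold change -0.98, SE 0.52, adjusted p = 0.682).

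mt-Nd5 (MT 11742 to 13565), the distal pump subunit, had the most reads of any protein gene and read 416 and 557 RPKM in WT and 132 and 394 in KO. KO library 2 came within a small margin of WT library 1, and the log2 fold change was -1.07 (SE 0.69, adjusted p = 0.697), which became -0.29 without KO library 1 and -1.85 without KO library 2. mt-Nd6 (MT 13552 to 14070), the sole protein gene on the minus strand, read 716 and 1043 RPKM in WT and 223 and 873 in KO. Here the groups overlapped, because KO library 2 lay between the WT libraries (log2 fold change -0.97, SE 0.80, adjusted p = 0.723). mt-Nd5 and mt-Nd6 share 14 bases on opposite strands, and whether strand was used in counting is not given in the sources used here.

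mt-Nd3 (MT 9459 to 9806) had 25 reads in all, at 76.3 and 18.3 RPKM in WT and 0 and 21.3 in KO, too few for an order of the groups. The last gene of the complex, mt-Nd4l, was at 0. Complex I genes together took 58.5% and 65.5% of the mitochondrial protein-gene reads in WT and 65.6% and 75.8% in KO. Of 16 within-library ratios computed it was the only one whose groups did not overlap, with WT library 2 and KO library 1 almost equal (exact permutation p = 0.333).

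Complex III has mt-Cytb (MT 14145 to 15288), the cytochrome b subunit that passes electrons from ubiquinol, as its mitochondrial gene. It read 261 and 364 RPKM in WT and 89.6 and 154 in KO. The groups stood apart, with a log2 fold change of -1.38 (SE 0.54, adjusted p = 0.672).

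Complex IV, cytochrome c oxidase, has its 3 core subunits encoded here, of which mt-Co1 alone had reads. mt-Co1 (MT 5328 to 6872), the subunit that holds the oxygen-reducing site, read 520 and 437 RPKM in WT and 111 and 181 in KO. Both KO libraries were below both WT libraries, with a mean of 146 ± 49.3 RPKM (SD, n = 2) against 478 ± 58.5, a log2 fold change of -1.74 (SE 0.53) and an adjusted p of 0.650. Its share of the protein-gene reads was 30.1% and 20.3% in WT and 21.2% and 14.4% in KO, which overlapped. Of the ATP synthase genes, mt-Atp8 had 44 reads and read 32.5 and 260 RPKM in WT and 21.6 and 66.8 in KO, where WT library 2 alone stood high (log2 fold change -1.26, SE 1.06, adjusted p = 0.727).

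The 4 protein genes at 0 were mt-Co2, mt-Co3, mt-Atp6 and mt-Nd4l, the first pair being core subunits of complex IV, and their partner gene in complex IV had 1184 reads. Their sequence was compared with the exons of all annotated nuclear transcripts in windows of 30 bases, about the length of a footprint. Every window of mt-Co2 (655 of 655) occurred in a nuclear transcript too, as did 754 of 755 for mt-Co3, 649 of 652 for mt-Atp6 and 265 of 268 for mt-Nd4l. mt-Nd3, with 25 reads, shared 313 of 319. These 5 genes were the ones with over 90% of windows shared, and each of the other 8 protein genes had at least 44 reads.

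The shared windows of these 5 genes lay chiefly in a block of chromosome 1 (GRCm38 chr1:24611535-24616197) with 7 annotated pseudogene rows, copies of mitochondrial DNA in the nuclear genome. Over their aligned length Gm28661 matched mt-Co2 at 681 of 681 bases, Gm28437 matched mt-Co3 at 783 of 783, Gm10925 matched mt-Atp6 at 678 of 678 and Gm10222 matched mt-Nd4l at 294 of 294. Gm28438 differed from mt-Nd3 by 1 base in 345, T3C, counted from 1 at the first base of mt-Nd3, with the mitochondrial base given first. The start of mt-Nd3 is shown with that base in capitals, since windows over it are among the 6 that mt-Nd3 does not share.

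mt-Nd3, bases 1 to 43: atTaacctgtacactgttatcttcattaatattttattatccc

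The 7 rows of the block held 1 read in all 4 libraries together, on Gm28438. How reads that align to several places were treated is not given in the sources used here, and whether this accounts for the zeros was not tested. At 0 reads in a library, up to 3 reads are allowed by counting error, which corresponds to between 4.22 and 21.4 RPKM for these 4 genes.

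**Figure D4:**
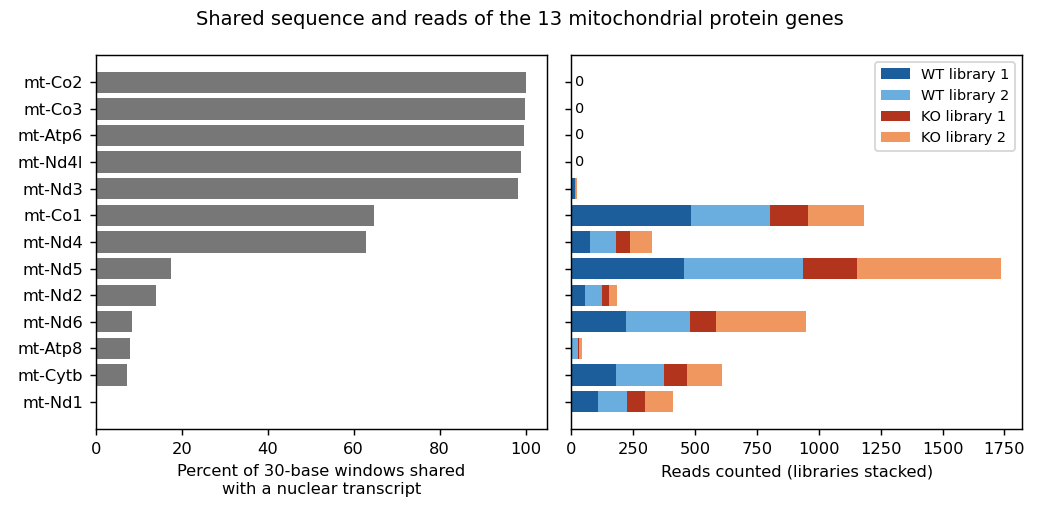
Percent of 30-base windows that also occur in an annotated nuclear transcript (left) and reads counted, stacked by library (right), for the 13 mitochondrial protein genes. The 5 genes above 90% hold between 0 and 25 reads, and mt-Co1 at 64.8% shared still holds 1184.

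Partly shared genes kept reads. mt-Co1 shared 983 of 1516 windows and mt-Nd4 847 of 1349, while mt-Nd5 shared 314 of 1795, mt-Nd2 142 of 1009, mt-Cytb 82 of 1115, mt-Nd6 41 of 490 and mt-Atp8 14 of 175, and mt-Nd1 shared none of 928. Levels between genes therefore depend on the length used. By mean RPKM over the 4 libraries mt-Nd6 (714) stood first, as it did in each library, followed by mt-Nd5 (375) and mt-Co1 (312), whose order was the opposite in WT library 1. Were all reads to come from unshared windows, the level per kilobase of unshared windows on the same scale would be 905 for mt-Co1, 825 for mt-Nd6 and 462 for mt-Nd5. On that scale mt-Co1 was above mt-Nd6 in 3 libraries but not in KO library 2 (525 against 1009). mt-Nd4 would move from 94.1 to 258. A factor of this kind is the same in every library and leaves fold changes between libraries as they are.

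Among nuclear rows that share a run with the mitochondrial chromosome, 9 of 23 held reads. Gm20594, a short coding row on chromosome 6 that shares a run of 65 bases with mt-Rnr2, read 314 and 605 RPKM in WT and 160 and 141 in KO (log2 fold change -1.53, SE 0.56, adjusted p = 0.672). Reads of both rows cannot be told apart over that run. Cep295, a centriole gene on chromosome 9, read 8.79 and 11.8 RPKM in WT and 2.72 and 2.29 in KO (log2 fold change -1.68, SE 0.37, adjusted p = 0.538). Its exons contain 34 bases of the tyrosine tRNA mt-Ty, which itself was at 0.

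mt-Ty, bases 12 to 45, also found in Cep295: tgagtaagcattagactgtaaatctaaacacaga

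Where on Cep295 its 246 reads lie is not recorded in a table of gene sums. The other 7 rows, Gm13341, Gm13340, Gm4076, Gm11407, Gm11512, Gm12155 and Gm28438, held between 1 and 4 reads each.

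The tRNA genes held 3920 and 3057 reads in WT and 1483 and 3822 in KO, or 0.605% and 0.476% of all reads against 0.211% and 0.588%. KO library 2 thus lay between the WT libraries, and KO library 1 below them. Outside microRNA and Y RNA genes the share was 0.693% and 0.701% in WT and 0.249% and 0.719% in KO, so KO library 2 was then above both WT libraries. Relative to reads on protein-coding genes, tRNA reads stood at 1.46% and 1.40% in WT and 0.322% and 0.992% in KO. Both KO libraries were then below both WT libraries (KO to WT ratio of means 0.460, exact permutation p = 0.333). The place of KO library 2 thus depended on the denominator. mt-Ts2, mt-Te and mt-Tp held 84.1% and 63.1% of the tRNA reads in WT and 83.1% and 82.4% in KO. The low value belonged to WT library 2, in which mt-Ta alone took 20.9% of tRNA reads, against 1.35% to 1.78% in the other 3 libraries.

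mt-Ts2 read 38095 and 20614 RPKM in WT and 11623 and 11835 in KO. Its KO libraries were almost equal and below both WT libraries, which differed from each other, and the log2 fold change was -1.26 (SE 0.92, adjusted p = 0.709). mt-Te read 34690 and 17965 RPKM in WT and 4842 and 16023 in KO. KO library 2 was just under the lower WT value (log2 fold change -1.503, SE 1.03, adjusted p = 0.697), and the value was -0.64 without KO library 1 and -2.37 without KO library 2. mt-Tp read 12329 and 24488 RPKM in WT and 5052 and 31266 in KO. Its lowest and highest values were both KO libraries, so it showed no order of the groups (log2 fold change -0.47, SE 1.19, adjusted p = 0.910).

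mt-Tc read 6183 and 8169 RPKM in WT and 1888 and 7035 in KO, with KO library 2 inside the WT range. mt-Ta read 1274 and 19687 RPKM in WT and 368 and 1220 in KO. It had no overlap, but KO library 2 and WT library 1 nearly touched and the log2 fold change of -2.90 (SE 1.41, adjusted p = 0.676) rested on WT library 2, the library 15.5-fold above WT library 1, and was -0.93 without it. mt-Tv, the valine tRNA between the rRNA genes, read 4351 and 1876 RPKM in WT and 671 and 1095 in KO, and its groups stood apart. mt-Tt, the threonine tRNA next to mt-Cytb, read 1040 and 539 RPKM in WT and 197 and 203 in KO, with close KO libraries (log2 fold change -1.90, SE 0.58, adjusted p = 0.650).

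The glycine tRNA mt-Tg read 1195 and 1342 RPKM in WT and 373 and 619 in KO, and its groups did not overlap. The arginine tRNA mt-Tr (634 and 1342 RPKM against 357 and 655) and the tryptophan tRNA mt-Tw (446 and 1774 against 247 and 1386) did overlap. Between 6 and 14 reads were counted on mt-Tn, mt-Tk, mt-Td and mt-Ts1, for asparagine, lysine, aspartate and serine, and their libraries ranged from 0 to 149 RPKM, too few for a comparison. The 8 tRNA genes at 0 were mt-Tf, mt-Tl1, mt-Ti, mt-Tq, mt-Tm, mt-Ty, mt-Th and mt-Tl2. Of these mt-Ty alone shared 30-base windows with an annotated nuclear transcript, 5 of 38. Only annotated transcripts were searched, and what kept the 8 genes at 0, mt-Ty included, was not tested. For tRNA genes of this length, 3 reads correspond to between 44.1 and 95.04 RPKM.

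The genes were also described by strand, a split made after their values were seen and without a test of a difference between strands. Of the 37 genes, 28 lie on the plus strand and 9 on the minus strand, which are mt-Nd6 and 8 tRNAs. Among genes with at least 20 reads, both KO libraries were below both WT libraries for 12 of 16 on the plus strand and for 2 of 5 on the minus strand, mt-Te and mt-Ta, where 20.3% of all tested genes were. In the same genes the RPKM of KO library 2 divided by that of KO library 1 had a median of 1.66 over 15 plus-strand genes (0.810 to 5.61) and of 3.73 over 5 minus-strand genes (3.31 to 6.19). The ranges overlapped through mt-Tw at 5.61, and mt-Atp8 at 3.09 and mt-Nd5 at 2.98 came next on the plus strand. Minus-strand genes took 44.6% and 54.4% of the protein and tRNA gene reads in WT and 38.4% and 63.1% in KO, so the KO libraries again lay on either side of WT (exact permutation p = 1).

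**Figure D5:**
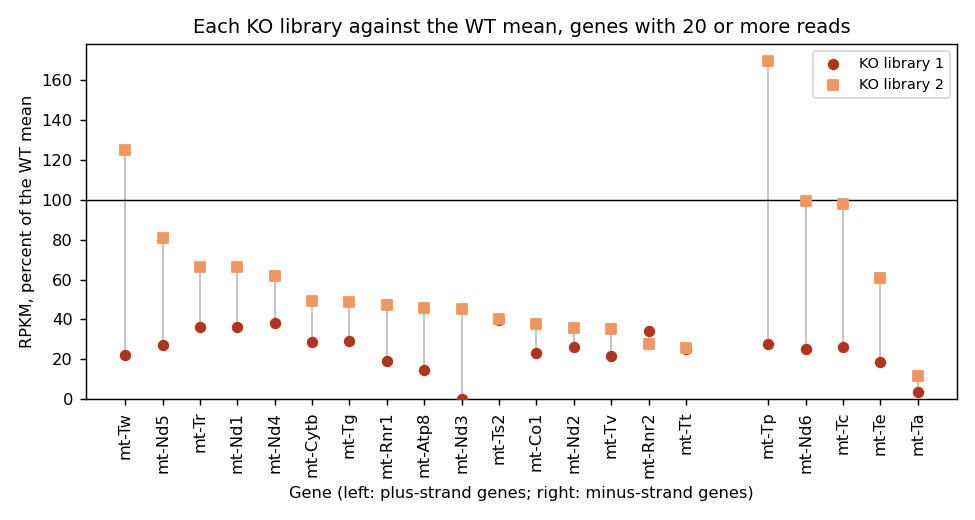
RPKM of each KO library as a percent of the WT mean, for the 21 mitochondrial genes with at least 20 reads, with plus-strand genes on the left and minus-strand genes on the right; a line joins the libraries of a gene and the horizontal line marks 100%. On the minus strand mt-Tp, mt-Nd6 and mt-Tc reached 98.0% or more of the WT mean in KO library 2, against 27.4% or less in KO library 1, while mt-Te (60.9%) and mt-Ta (11.6%) did not, and on the plus strand mt-Tw stood at 125% and 22.2%.

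The classes did not keep a fixed proportion to each other in the KO libraries. Per 1000 mitochondrial rRNA reads there were 6.34 and 8.08 protein-gene reads in WT and 6.95 and 13.02 in KO. For tRNA genes the values were 15.4 and 15.8 in WT and 14.004 and 31.8 in KO. KO library 1 had proportions close to WT at a lower total, and KO library 2 had more tRNA reads per rRNA read. Neither ratio separated the groups (exact permutation p = 0.667 and 1). Between tRNA and protein genes the proportion was steadier, at 2.44 and 1.96 tRNA reads per protein-gene read in WT and 2.01 and 2.44 in KO.

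The nuclear genes for the same organelle had log2 fold changes mostly above 0. Of 78 nuclear respiratory chain subunits, 77 were tested, 0 passed in either direction, and 64 had log2 fold changes above 0 and 13 below, where 50.0% of all tested genes were below, with a median of 0.47 beside -1.26 for the mitochondrial protein genes. Without adjustment, at p under 0.05, 2 were higher and 1 lower, where 2.86% of all tested genes were higher and 4.46% lower. Their summed level was 1816 and 2989 RPKM in WT and 3043 and 3325 RPKM in KO. Chosen for their size, Cox7a2l (-1.32, SE 0.56) and Ndufs5 (-1.31, SE 0.49) had the lowest and Uqcrb (1.66, SE 0.60) and Ndufa1 (1.53, SE 0.81) the highest log2 fold changes among subunits with at least 20 reads, and the adjusted p of each was between 0.672 and 0.683. Of 75 genes for replication and transcription of mitochondrial DNA and for processing, modification, charging and translation of its RNA, 57 were tested, 0 passed, and 39 had log2 fold changes above 0, with a median of 0.29 and, without adjustment, 5 higher and 1 lower. Of 79 proteins of the mitochondrial ribosome, 76 were tested and 0 passed, with 53 above 0 and a median of 0.23. Without adjustment 8 of these were higher and 1 lower.

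The next values rank the 57 tested genes for replication, transcription, processing, modification, charging and translation, without the mitochondrial ribosomal proteins. Among those with at least 20 reads, Ssbp1, which coats single-stranded mitochondrial DNA, had the highest log2 fold change. It read 0.198 and 0.508 RPKM in WT and 5.54 and 3.26 RPKM in KO (log2 fold change 1.97, SE 0.53, adjusted p = 0.629). Both KO libraries were above both WT libraries. Mrm3, an rRNA methyltransferase, read 0 and 2.19 RPKM in WT and 4.56 and 7.04 in KO (log2 fold change 1.90, SE 0.65, adjusted p = 0.668). Of the same 57 genes, again without the ribosomal proteins, Ptcd2 (-0.75, SE 0.39) and Lars2 (-0.67, SE 0.75) had the lowest log2 fold changes with at least 20 reads. Their adjusted p in limma was 0.680 and 0.775. These lists were chosen with earlier results of these data known.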

How the data were processed

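Ribosome-protected fragments of primary mouse myoblasts were sequenced in 4 libraries, 2 WT and 2 eIF5A KO. The cycloheximide time differs between the submitters' descriptions. The authors removed low-quality, rRNA and tRNA reads, aligned the rest with TopHat2 to mm10, counted them with HTSeq on Ensembl genes and deposited RPKM. Strand and multi-mapping settings are not given in the sources used here. Whole reads were recovered from the RPKM (100% of values within 0.01 of a whole number), and their sums per library are the depths quoted. The library size in the RPKM equals the geometric mean of the read totals times a median-of-ratios size factor.

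Genes averaging 1 RPKM or more were fitted as log2(RPKM + 1) with limma 3.58.1 (R 4.3.3, trend=TRUE, Benjamini-Hochberg), a scale that understates changes of low genes. Single values were compared by two-sided exact permutation tests (scipy 1.17.1). Sequence comparisons used GENCODE M21 transcripts. Members and lists were chosen with earlier results of these data known. All 37 genes are accounted for. Nuclear rows were named where they held reads and shared a 30-base run. Nuclear genes were also named as the lowest and highest pair of log2 fold changes with at least 20 reads. Those pairs came from the respiratory chain subunits and the genes of the replication to translation list, not from the ribosomal proteins. No per-sample column was left unused.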

Additional observations from a re-analysis of the deposited data

How the results depend on the processing

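Across 17 alternatives, 0 mitochondrial genes passed an adjusted p of 0.05, the lowest being 0.134. Of 385 gene values under them, 366 kept their direction and 19 turned. With 4 libraries the depth of 642429 to 704006 reads limits genes with few reads. The count of genes lower at an unadjusted p under 0.05, 4 in the text, was 1 after scaling every library to an equal sum of all reads (1.5% of all genes lower, 14.8% higher), 1 under quantile normalization (3.59% lower), 9 without the variance trend (4.37%) and 11 with limma-voom (6.66%); for these the cause was not tested. It ranged from 0 to 8 when a library was left out (1.98% to 6.96% of all genes).

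The median log2 fold change of the protein genes was -0.65 under the same sum of all reads, which also moved the median of all genes to 0.47 (a difference of -1.12). It was -0.65 to -1.87 with a library left out, also relative to all genes. Under the same sum mt-Tp was 0.15 and mt-Tw 0.012. Under quantile normalization, which gives the highest-ranked genes of every library the same values, mt-Rnr1 was 0.27, mt-Rnr2 0.68, mt-Ts2 0.076, mt-Te 0.44, mt-Tp 1.00, mt-Tc 0.83, mt-Tw 0.41, mt-Tr 0.26 and mt-Nd6 0.047. With a library left out, mt-Tp ranged from -1.78 to 0.85, mt-Tw from -1.85 to 0.64, mt-Nd6 from -1.95 to 0.015, mt-Atp8 from -2.74 to 0.22, mt-Tn from -6.41 to 0.54 and mt-Ts1 from -2.79 to 4.16.

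The KO to WT ratio of the protein-gene share was 0.703 of all reads, 0.431 of protein-coding reads, 0.429 of nuclear protein-coding reads, 0.651 of reads outside microRNA and Y RNA genes and 0.426 to 0.981 with a library left out. For rRNA the ratio was 0.484 of all reads, 0.296 of protein-coding reads and 0.295 of nuclear protein-coding reads. Outside microRNA and Y RNA genes it was 0.453 for rRNA and 0.695 for tRNA. For tRNA it was 0.739 of all reads, 0.460 of protein-coding reads and 0.458 of nuclear protein-coding reads. With a library left out the tRNA ratio of all reads ranged from 0.390 to 1.09. The mt-Rnr2 to mt-Rnr1 ratio (KO over WT, 1.18) ranged from 0.586 to 1.78 and protein-gene reads per rRNA read (1.39) from 0.964 to 1.81.

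A replicate block gave 0 genes at an adjusted p of 0.05 and 6 lower at an unadjusted one, where 4.48% of all genes were lower. The labels give same-numbered libraries only a number in common, and no pairing was assumed. Their deviations from the group means correlated at 0.0575 over genes, which cannot show whether they shared a preparation. The coding GC correction and 2 denominators that leave out further classes of genes were added after the data were seen; the corrected median of the protein genes was -1.70.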
